A study of Mus musculus with 6 samples.

Results

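Transcripts of 10 mouse genes that link the transcription factor p53 to DNA repair, nucleotide supply and metabolism were followed in epiblast-like cells (EpiLCs) with and without Cables2. The genes were taken by symbol from the deposited table of 49585 gene rows: the sestrin genes Sesn1 and Sesn2, Rrm2b, the nucleotide excision repair genes Xpc, Ddb2 and Ercc5, the translesion polymerase gene Polk, Tigar, Ak1 and Zfp365. Each symbol had 1 row, and all 10 genes were among the 11594 that passed the low-count filter. EpiLCs stand in, in culture, for the epiblast just after implantation. They were derived here from C57BL/6 embryonic stem cells that had been kept with LIF, 3 µM CHIR99021 and 1 µM PD0325901, by transfer to fibronectin with activin A at 20 ng/mL, bFGF at 12 ng/mL and 1% KSR, and RNA was taken on day 2. One group of 3 libraries was wild type (WT) and the other group of 3 was Cables2-/- (KO), and both went through the same induction. Whether a group's libraries came from separate cultures, clones or stem cell lines is not in the labels. The p-values therefore measure only how far these libraries differ, and that spread may be technical.

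p53 is a transcription factor that is stabilised when DNA is damaged or nucleotides run short, and it switches on genes that halt the cell cycle, repair DNA, adjust metabolism or kill the cell. The repair arm described here holds damage sensors (Xpc, Ddb2), a nuclease that cuts beside a lesion (Ercc5), a polymerase that copies past lesions (Polk) and a subunit that makes deoxynucleotides outside S phase (Rrm2b). The metabolic arm holds the stress-inducible sestrins, a sugar phosphatase (Tigar) and an adenylate kinase (Ak1). Whether p53 switches on each of these genes in these mouse cells was not tested. Pluripotent cells divide rapidly with a short G1 phase and are known for an active DNA damage response.

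Library totals ran from 4234788 to 5206717 counts, so a count of 3, used as a floor, was worth 0.568 to 0.714 CPM (library-scaled counts), a limit that covers counting error only. The lowest value of any of the 10 genes was 23 counts (Ddb2 in WT 03). Cables2 itself fell from counts of 114, 111 and 121 in WT to 6, 11 and 4 in KO (log2 fold change -4.16 ± 0.26, adjusted p = 1.5e-23). Epiblast markers were high in every library (11 genes summing to 6387 to 6636 CPM in WT and 6785 to 6976 CPM in KO, 4 of them higher and 2 lower). The sum of 11 naive stem cell markers was 429.9 to 498 CPM in WT and 244 to 266 CPM in KO, with 7 of 10 tested markers lower, 1 higher and Prdm14 at 0 throughout. Of the other lists, 12 fibroblast markers summed to 39.3 to 44.0 CPM in WT and 42.8 to 44.3 CPM in KO, with 0 of 4 tested called and Postn and Lum at 0. The 10 primitive endoderm markers summed to 18.4 to 22.4 CPM in WT and 11.3 to 17.9 CPM in KO, with 1 of 2 tested lower and Afp at 0. The 10 trophoblast markers summed to 95.6 to 119 CPM in WT and 123 to 131 CPM in KO, with 1 of 7 tested higher and Elf5 at 0. The 10 neural markers summed to 145 to 159 CPM in WT and 157 to 180 CPM in KO, with 2 of 6 tested higher and 1 lower. The mitochondrially encoded share of counts was 0.141% to 0.152% in WT and 0.204% to 0.243% in KO. The part of these marker lists and of the mitochondrial share in the changes below was not tested.

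Of the 10 genes, 5 rose and 1 fell in the KO at an adjusted p under 0.05 (edgeR quasi-likelihood test with Benjamini-Hochberg adjustment over all 11594 genes). Zfp365, Ercc5, Ak1, Polk and Sesn2 rose, Sesn1 fell, and Rrm2b, Xpc, Ddb2 and Tigar did not pass. Over all tested genes 17.3% were called, 8.13% higher and 9.13% lower. The median log2 fold change (KO minus WT) of the 10 genes was 0.21, against 0.0087 over all tested genes. The 10 genes were chosen with earlier results of these data known, so their counts and median are not an independent comparison with all genes. In 6 of the 10 the CPM ranges of the groups did not overlap, with KO above WT in 4 and below in 2, and this was so for 31.6% of all tested genes. Counts were taken from bulk RNA, in which fewer cells of a type and less RNA per cell cannot be told apart. DESeq2 called 4 of the 10, all higher, without Polk and Sesn1, among 11.1% of the genes for which it gave an adjusted p. The authors' deposited table calls 5 of the 10 at an FDR under 0.05, 4 higher and 1 lower, where it calls 8.75% of the genes with a count, and gives Polk an FDR of 0.109.

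**Figure D1:**
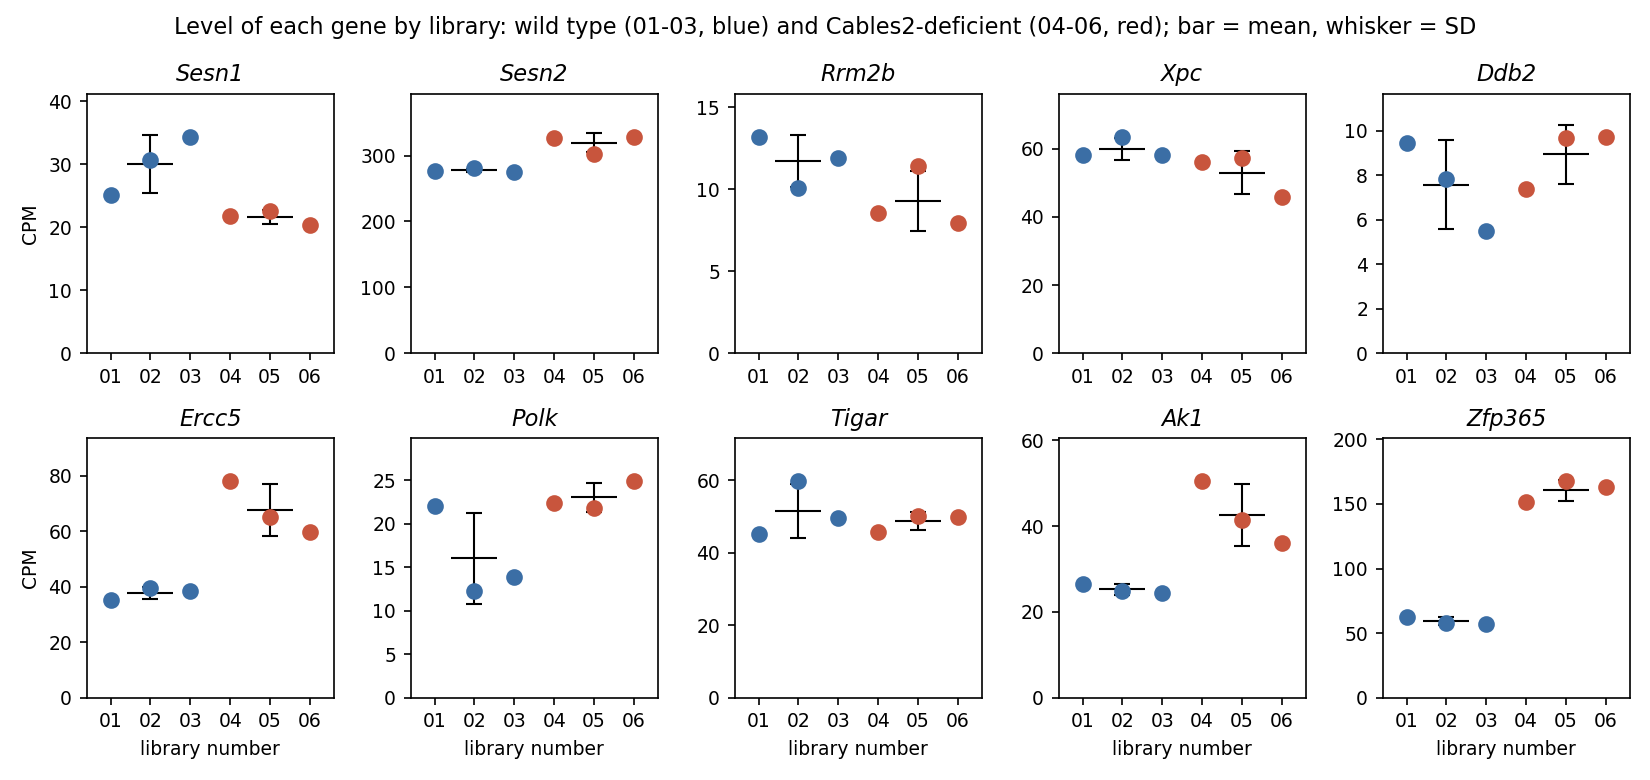
CPM (vertical axis, from 0) of the 10 genes in each library (horizontal axis), with WT in blue and KO in red; the bar is the group mean and the whisker 1 SD over 3 libraries. The KO libraries of Zfp365, Ercc5, Ak1 and Sesn2 all lie above the WT libraries and those of Sesn1 and Xpc all lie below them.

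Zfp365 changed most. It encodes a zinc finger protein whose human counterpart ZNF365 is a p53 target that helps cells get through stalled replication and keeps fragile sites intact. Zfp365 (ENSMUSG00000037855.15, mm10 chromosome 10, 67886103 to 67912662, minus strand) gave counts of 299, 260 and 238 for WT (libraries 01, 02 and 03, the order used throughout) against 777, 882 and 720 for KO (libraries 04, 05 and 06). On the CPM scale these were 62.6, 58.1 and 56.8 in WT and 151, 167 and 163 in KO. The groups were far apart, and within each the libraries were close. The mean went from 59.2 ± 3.07 to 160.5 ± 8.33 CPM (SD, n = 3 each), which is 2.71-fold, with a log2 fold change of 1.44 ± 0.07 (SE, adjusted p = 9.43e-28). By p-value Zfp365 ranked 3 of the 11594 genes, ahead of the p53 target Cdkn1a (rank 5, 1.37 ± 0.08), which encodes the cell cycle inhibitor p21. It was called in all 13 alternative fits, with a log2 fold change between 1.40 and 1.48. The sequence around its start is shown because it belongs to the strongest response of the set (RefSeq, GRCm38.p6, minus strand, chr10:67912613-67912912, 250 bases before to 50 bases after the start, 5′ to 3′).
Zfp365: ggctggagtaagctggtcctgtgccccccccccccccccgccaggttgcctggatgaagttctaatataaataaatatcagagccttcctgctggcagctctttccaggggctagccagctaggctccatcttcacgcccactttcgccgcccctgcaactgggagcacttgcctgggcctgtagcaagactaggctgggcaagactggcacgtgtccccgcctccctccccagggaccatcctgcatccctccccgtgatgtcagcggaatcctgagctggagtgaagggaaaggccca
No match to the p53 consensus half-site of 10 bases (RRRCWWGYYY) lies in this window, on either strand. A half-site is only a part of a full p53 element, and full elements were not searched for.

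Of the 3 excision repair genes among the 10, Ercc5 rose. It encodes XPG, the endonuclease that cuts on the 3′ side of a lesion in nucleotide excision repair. Ercc5 (ENSMUSG00000026048.16, chromosome 1, 44147744 to 44181260, plus strand) gave WT counts of 169, 177 and 162 against KO counts of 401, 343 and 265, or 35.4, 39.5 and 38.65 CPM against 78.0, 65.1 and 59.9 CPM. Every KO library was above every WT library, and KO 04 was the highest. The means were 37.9 ± 2.18 and 67.7 ± 9.34 CPM (SD, n = 3 each), a log2 fold change of 0.84 ± 0.10 (SE, adjusted p = 4.22e-10). It was called in all 13 alternative fits (0.72 to 0.92). Its start is shown for comparison with that of Zfp365 (RefSeq, GRCm38.p6, plus strand, chr1:44147494-44147793), and it too holds no match to the p53 half-site.
Ercc5: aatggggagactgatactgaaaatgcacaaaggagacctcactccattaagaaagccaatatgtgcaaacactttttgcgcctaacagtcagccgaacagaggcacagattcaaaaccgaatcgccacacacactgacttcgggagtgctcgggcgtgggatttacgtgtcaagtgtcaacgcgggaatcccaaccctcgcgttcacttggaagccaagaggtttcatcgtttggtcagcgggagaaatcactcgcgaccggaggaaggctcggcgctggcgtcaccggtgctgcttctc

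The damage sensors of the same pathway did not pass the test. Xpc, which encodes the subunit that finds helix distortions anywhere in the genome, gave WT counts of 278, 284 and 243 against KO counts of 288, 301 and 202. After scaling the means were 59.9 ± 3.09 and 52.95 ± 6.33 CPM (SD, n = 3 each), with KO 06 the lowest. The KO libraries lay below the WT libraries, by a small margin, and the log2 fold change was -0.17 ± 0.10 (95% interval -0.36 to 0.02, adjusted p = 0.231), and -0.08 without KO 06. Xpc lies on chromosome 6 (91489305 to 91515888, minus strand), where the median log2 fold change of 537 tested genes was -0.25 and 36.9% were called, 97% of them lower. Relative to that median, Xpc was at 0.08.

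Ddb2 encodes the subunit of the UV-damaged DNA binding complex that recognises pyrimidine dimers. It gave WT counts of 45, 35 and 23 against KO counts of 38, 51 and 43, and the groups overlapped. The means were 7.58 ± 1.98 and 8.93 ± 1.33 CPM (SD, n = 3 each), and the log2 fold change was 0.22 ± 0.24, with an interval from -0.25 to 0.69 (adjusted p = 0.584). Leaving out 1 library moved it between 0.04 (without WT 03) and 0.41 (without WT 01). No change lay inside this interval, and so did a fall to -0.25 or a rise to 0.69 on the log2 scale. Ddb2 (chromosome 2, 91211572 to 91236982, minus strand) shares 652 exonic bases, 23.8% of its exons, with Acp2 on the opposite strand, and the strand setting of the counting is not given in the sources used here. Acp2, a lysosomal phosphatase gene named here after its value was seen, was at 0.34 ± 0.21 on the log2 scale (adjusted p = 0.3).

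Of 30 excision repair partners listed (the XPC, DDB and TFIIH complexes, the XPF nuclease, RPA and the ligation step), all were tested, 2 rose and 2 fell, with a median of 0.04. The shares over all tested genes, to be set beside this and each later list, were 8.13% higher and 9.13% lower. Xrcc1, a scaffold of the ligation step, rose (0.34 ± 0.08, adjusted p = 0.000456), as did its ligase gene Lig3 (0.20 ± 0.07, adjusted p = 0.0389). The call of Lig3 was lost on leaving out WT 01 (adjusted p = 0.241), KO 04 (0.145) or KO 05 (0.126). Each of these 3 fits called 1 higher gene in the list. The replicative ligase gene Lig1 fell (-0.24 ± 0.05, adjusted p = 0.000156). Rad23b, a partner that stabilises XPC, was at 0.0044 ± 0.05 (adjusted p = 0.968) and Ddb1, the partner of Ddb2, at 0.06 ± 0.04 (adjusted p = 0.352). The other core partners had log2 fold changes of 0.13 (Cetn2), 0.24 (Xpa), -0.06 (Cul4a), 0.23 (Ercc1) and -0.24 (Ercc4), with adjusted p between 0.232 and 0.739. Their signs were not all stable: Xpa, with 7 to 30 counts, was at -0.12 without WT 01 and -0.27 without KO 04, Cetn2 at -0.02 without WT 02 and Cul4a at 0.0028 without WT 03. Ercc1, which with Ercc4 makes the nuclease that cuts on the 5′ side of the lesion, had 131 counts in WT 02 and 74 and 65 in the other WT libraries, and passed without WT 02 (0.59, adjusted p = 0.0176).

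Polk encodes DNA polymerase kappa, a Y-family enzyme that bypasses bulky adducts and also fills gaps in excision repair. It gave WT counts of 105, 55 and 58 against KO counts of 115, 115 and 110, or 21.99, 12.3 and 13.8 CPM against 22.4, 21.8 and 24.9 CPM. WT 01 was at the KO level, so the groups overlapped, and the other WT libraries were well below. Group means of 16.04 ± 5.21 and 23.0 ± 1.62 CPM (SD, n = 3 each) gave a log2 fold change of 0.51 ± 0.16 (SE, adjusted p = 0.0212). The call was lost without WT 02 (0.34, adjusted p = 0.217), WT 03 (0.41, 0.11) or KO 06 (0.45, 0.096), and the value was 0.82 without WT 01. Polk spans 96480689 to 96542485 on chromosome 13 in the table, where the median of 445 tested genes was 0.0055.

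Among 14 tested genes of translesion synthesis, 1 rose and 4 fell, with a median of -0.08. Rev1, a Y-family polymerase that is the scaffold for the others, went from 53.2 ± 1.40 to 77.1 ± 9.40 CPM (SD, n = 3 each; 0.53 ± 0.09, adjusted p = 5.4e-06), about the same size of log2 change as Polk but with no overlap between the groups. The other Y-family genes had negative values: Poli, the iota polymerase, fell (-0.36 ± 0.13, adjusted p = 0.0343), and Polh, the eta polymerase that copies past UV dimers, was at -0.35 ± 0.16 (adjusted p = 0.121). Mad2l2, a subunit of polymerase zeta, fell (-0.51 ± 0.18, adjusted p = 0.0314), and so did the ubiquitin ligase gene Rad18 on chromosome 6 (-0.32 ± 0.10, adjusted p = 0.0176, and -0.07 relative to the median there) and the deubiquitinase gene Usp1 (-0.22 ± 0.07, adjusted p = 0.0113), which set and remove the mark on PCNA that recruits these enzymes. None of the 4 falls held in every fit: the call of Poli was lost without WT 01, WT 02, WT 03, KO 04 or KO 06 (adjusted p up to 0.215), that of Mad2l2 without WT 01, WT 03, KO 05 or KO 06 (up to 0.202), that of Rad18 without WT 02 or KO 04 (up to 0.13) and that of Usp1 without WT 02 or KO 05 (up to 0.0743). The count of lower genes was 1 without WT 02, 2 without WT 01, WT 03, KO 04 or KO 06, and the count of higher genes was 2 without WT 02.

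Rrm2b encodes p53R2, the small subunit of ribonucleotide reductase that serves repair and mitochondrial DNA outside S phase. It gave WT counts of 63, 45 and 50 against KO counts of 44, 60 and 35, and the groups overlapped. The group means were 11.7 ± 1.58 and 9.29 ± 1.85 CPM (SD, n = 3 each). The log2 fold change was -0.33 ± 0.21 (interval -0.74 to 0.09, adjusted p = 0.3), so that a rise above 0.09 on the log2 scale lies outside the interval. It ran from -0.51 (without KO 05) to -0.23 (without WT 01) when 1 library was left out. Its exons share 734 bases (8.04%) with the antisense gene model Gm49085. The S-phase paralog Rrm2 gave WT counts of 1546, 1517 and 1375 against KO counts of 1647, 1559 and 1404 (-0.09 ± 0.05, adjusted p = 0.272), and the large subunit gene Rrm1 was at -0.09 ± 0.06 (adjusted p = 0.34). The ratio of Rrm2b to Rrm2 counts within a library was 0.0356 ± 0.00558 in WT and 0.03 ± 0.00737 in KO (SD, n = 3 each; two-sided exact permutation p = 0.3, where 0.1 is the smallest possible). Of 18 tested genes of deoxynucleotide supply, 1 rose and 2 fell, with a median of -0.04. The nucleoside diphosphate kinase gene Nme2 rose (0.30 ± 0.06, adjusted p = 0.000195), while the nucleoside transporter gene Slc29a1 (-0.53 ± 0.07, adjusted p = 1.32e-08) and the dCMP deaminase gene Dctd on chromosome 8 (-0.36 ± 0.08, adjusted p = 0.000405) fell. On chromosome 8 the median was -0.21 and 36.5% of genes were called, and Dctd was at -0.15 relative to that median.

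The sestrins moved in opposite directions. Sestrins are stress-inducible proteins that lower mTORC1 activity through the GATOR complexes, and in human cells the Sesn2 protein binds leucine. Sesn2 (ENSMUSG00000028893.8, chromosome 4, 132492032 to 132510501, minus strand) gave WT counts of 1323, 1255 and 1151 against KO counts of 1681, 1595 and 1453. These were 277, 280.4 and 275 CPM in WT against 327, 303 and 328.5 CPM in KO, without overlap. The log2 fold change was small, 0.20 ± 0.05, and passed with an adjusted p of 0.003 on mean levels of 277 ± 2.90 and 319.5 ± 14.5 CPM (SD, n = 3 each). It was called in all 13 alternative fits (0.18 to 0.24).

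Sesn1 (ENSMUSG00000038332.13, chromosome 10, 41809935 to 41908424, plus strand) gave WT counts of 120, 137 and 144 against KO counts of 112, 119 and 90, or 25.1, 30.6 and 34.4 CPM against 21.8, 22.6 and 20.4 CPM. The KO libraries were close together and all below WT, whereas the WT libraries were spread, with library 01 nearest to KO. The means were 30.0 ± 4.64 and 21.6 ± 1.13 CPM (SD, n = 3 each), a log2 fold change of -0.47 ± 0.14 (SE, adjusted p = 0.0107). The call was lost without WT 03 (-0.36, adjusted p = 0.112) and in DESeq2 (-0.48, adjusted p = 0.0688). Within a library there were 11, 9.16 and 7.99 Sesn2 counts per Sesn1 count in WT and 15, 13.4 and 16.1 in KO, a ratio that does not depend on scaling. Its log2 change was 0.67 (two-sided exact permutation p = 0.1, the smallest that 3 libraries against 3 allow). The third member Sesn3 was at 0.12 ± 0.09 (adjusted p = 0.36).

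The starts of both sestrin genes are shown because these paralogs moved apart (RefSeq, GRCm38.p6; Sesn2 minus strand, chr4:132510407-132510706; Sesn1 plus strand, the downstream of its listed starts, chr10:41887189-41887488). Capitals mark each match to the p53 half-site.
Sesn2: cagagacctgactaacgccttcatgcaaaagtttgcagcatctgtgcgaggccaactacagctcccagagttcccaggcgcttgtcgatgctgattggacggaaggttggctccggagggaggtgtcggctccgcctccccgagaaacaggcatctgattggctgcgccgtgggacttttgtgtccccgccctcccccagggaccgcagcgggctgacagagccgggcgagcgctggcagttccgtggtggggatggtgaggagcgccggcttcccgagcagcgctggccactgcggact
Sesn1: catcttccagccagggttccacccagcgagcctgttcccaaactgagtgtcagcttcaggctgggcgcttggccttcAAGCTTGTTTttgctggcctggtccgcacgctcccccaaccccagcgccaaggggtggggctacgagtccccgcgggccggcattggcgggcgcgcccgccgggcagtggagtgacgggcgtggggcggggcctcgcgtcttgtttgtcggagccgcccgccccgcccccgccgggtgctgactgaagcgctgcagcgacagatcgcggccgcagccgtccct
The match in Sesn1 begins 173 bases before the start. The upstream window of Sesn1 and that of Sesn2 hold none. For reference, 1 window of Cdkn1a (plus strand, chr17:29090729-29091028), a gene that p53 is known to bind near its start, holds 2 half-site matches.
Cdkn1a: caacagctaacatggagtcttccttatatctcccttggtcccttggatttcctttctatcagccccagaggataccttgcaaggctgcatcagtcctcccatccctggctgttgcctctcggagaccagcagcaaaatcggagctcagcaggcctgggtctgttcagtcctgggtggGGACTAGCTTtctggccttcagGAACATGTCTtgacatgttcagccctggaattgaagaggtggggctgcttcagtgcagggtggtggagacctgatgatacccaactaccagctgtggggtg
Windows were listed for 7 of the 10 genes, 12 windows in all, and 2 windows (Sesn1 and Polk, both at one of several starts) held a match. Over all 32851 windows of the same length 8.4% did. These are letter matches to a half-site in a short window. They say nothing of p53 binding, which was not measured.

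Of 21 tested genes around the sestrins (GATOR, TSC and AMPK subunits and the sestrin partners), 2 rose and 2 fell, with a median of 0.03. Sqstm1, the autophagy receptor p62, rose (0.25 ± 0.06, adjusted p = 0.00075). Prkag2, a regulatory AMPK subunit gene, rose too (0.50 ± 0.18, adjusted p = 0.0487), but the groups overlapped and the call was lost without WT 01, WT 03, KO 05 or KO 06 (adjusted p up to 0.35), which each left 1 higher gene. The genes that fell were the GATOR2 subunit genes Mios on chromosome 6 (-0.49 ± 0.10, adjusted p = 7.04e-05) and Wdr59 on chromosome 8 (-0.42 ± 0.10, adjusted p = 0.000831), the chromosomes whose medians were -0.25 and -0.21. Relative to these medians Mios was at -0.24 and Wdr59 at -0.21.

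Among the metabolic genes of the 10, Ak1 had the largest rise. It encodes a cytosolic adenylate kinase that interconverts ATP, ADP and AMP. Ak1 (ENSMUSG00000026817.14, chromosome 2, 32621758 to 32635058, plus strand) gave WT counts of 127, 111 and 102 against KO counts of 259, 218 and 159, or 26.6, 24.8 and 24.3 CPM against 50.4, 41.4 and 36.0 CPM. The WT libraries were nearly level, and the KO libraries were all higher but spread, with library 04 at the top as for Ercc5. Group means of 25.2 ± 1.199 and 42.6 ± 7.30 CPM (SD, n = 3 each) gave a log2 fold change of 0.76 ± 0.13 (SE, adjusted p = 2.01e-06). It was called in all 13 alternative fits (0.61 to 0.86). Ak4, the adenylate kinase gene of the mitochondrial matrix, fell (-0.39 ± 0.14, adjusted p = 0.0389). The call of Ak4 was lost without WT 02 (adjusted p = 0.247), KO 04 (0.084) or KO 05 (0.169).

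Tigar encodes a phosphatase of fructose 2,6-bisphosphate that lowers glycolytic flux and favours the pentose phosphate pathway. It gave WT counts of 215, 267 and 208 against KO counts of 235, 264 and 221, and the groups overlapped. The group means were 51.4 ± 7.47 and 48.6 ± 2.48 CPM (SD, n = 3 each). The log2 fold change was -0.08 ± 0.10 (interval -0.29 to 0.12, adjusted p = 0.66), and it was 0.04 without WT 02. Like Xpc, Tigar lies on chromosome 6 (127085116 to 127109557, minus strand), and relative to the median of that chromosome it was at 0.17. A share of 3.34% of its exon bases overlaps the antisense gene Platr31, which had at most 2 counts in a library.

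In the list of adenylate kinases and enzymes around fructose phosphates and the pentose phosphate pathway, 14 of 21 genes were tested, 0 rose and 6 fell, with a median of -0.23. Over all tested genes 8.13% rose and 9.13% fell. The count of lower genes in the list was 4 to 6 when 1 library was left out. Hexokinase 2 (Hk2), the first step of glycolysis, fell (-0.63 ± 0.05, adjusted p = 2.05e-17) and lies on chromosome 6, and was at -0.38 relative to the median there. The platelet phosphofructokinase gene Pfkp on chromosome 13 fell by a similar amount (-0.66 ± 0.10, adjusted p = 3.25e-07). The muscle phosphofructokinase gene Pfkm (-0.24 ± 0.07, adjusted p = 0.00968) and the pentose phosphate enzyme gene Pgd (-0.21 ± 0.06, adjusted p = 0.0132) fell as well. The call of Pfkm was lost without WT 01 (adjusted p = 0.222) or KO 06 (0.12), and that of Pgd without WT 02 (0.173) or KO 05 (0.0522) or 06 (0.0635). Pfkfb3, whose product makes the sugar phosphate that Tigar removes, was at -0.29 ± 0.17 (adjusted p = 0.253) and the first pentose phosphate gene G6pdx at 0.17 ± 0.10 (adjusted p = 0.28).

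**Figure D2:**
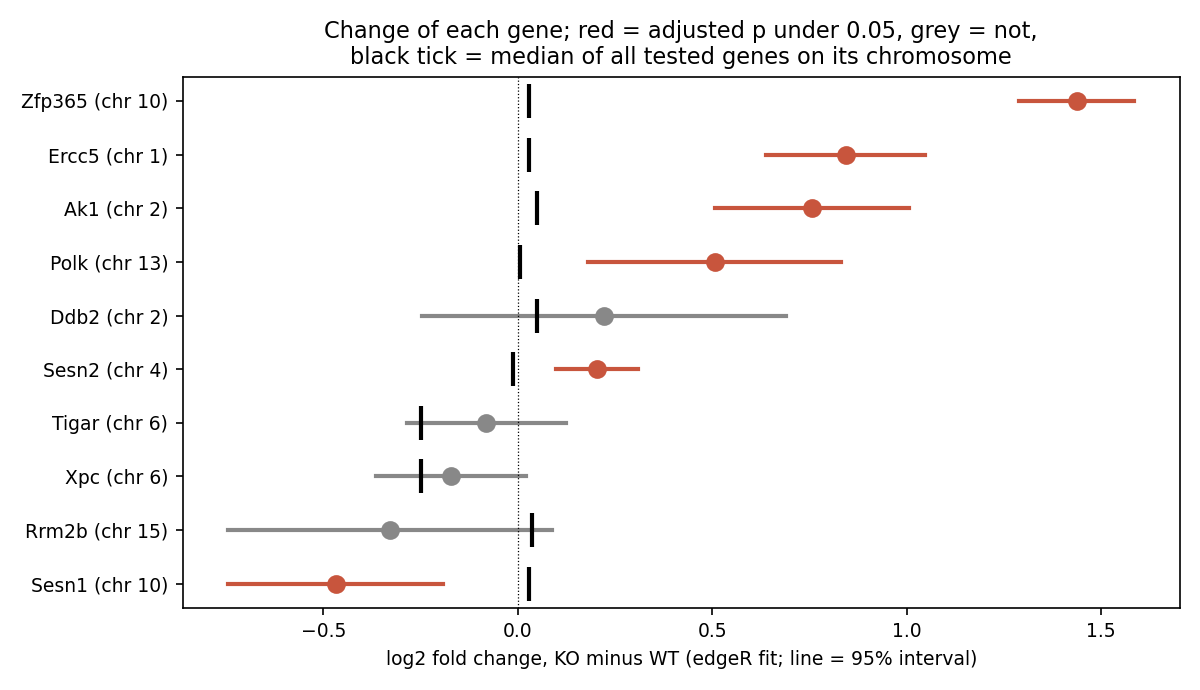
Log2 fold change (KO minus WT) of each of the 10 genes with its 95% interval, red where the adjusted p was under 0.05; the black tick is the median of all tested genes on the same chromosome. Zfp365 stands at 1.44, Ercc5 at 0.84 and Ak1 at 0.76, while Xpc (-0.17) and Tigar (-0.08) lie above the median of chromosome 6 (-0.25).

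Levels of different genes were compared as CPM per kilobase of exon. The exon length of each gene was the union of all its annotated exons in GENCODE M21. Sesn2 was the most abundant of the 10 in both groups, at 79.8 ± 0.834 CPM per kilobase in WT and 91.9 ± 4.18 in KO, and Rrm2b the least, at 1.28 ± 0.173 and 1.02 ± 0.202 (SD, n = 3 each). In CPM, before division by length, Ddb2 had the lowest mean (7.58 in WT, 8.93 in KO), below Rrm2b (11.7 and 9.29). In WT the order of mean CPM per kilobase after Sesn2 was Tigar (14.1), Zfp365 (11.4), Xpc (10.9), Ak1 (9.74), Sesn1 (7.54), Ercc5 (6.46), Polk (2.89) and Ddb2 (2.77). The libraries of Zfp365 and Xpc, of Sesn1 and Ercc5, and of Polk and Ddb2 overlapped, and the other neighbours in this order did not. In KO Zfp365 came next after Sesn2 (30.8 ± 1.60 CPM per kilobase), apart from its neighbours, followed by Ak1 (16.4), Tigar (13.3), Ercc5 (11.5), Xpc (9.64), Sesn1 (5.42), Polk (4.15) and Ddb2 (3.27). There the libraries of Tigar and Ercc5 and of Ercc5 and Xpc overlapped, and the other neighbours did not.

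**Figure D3:**
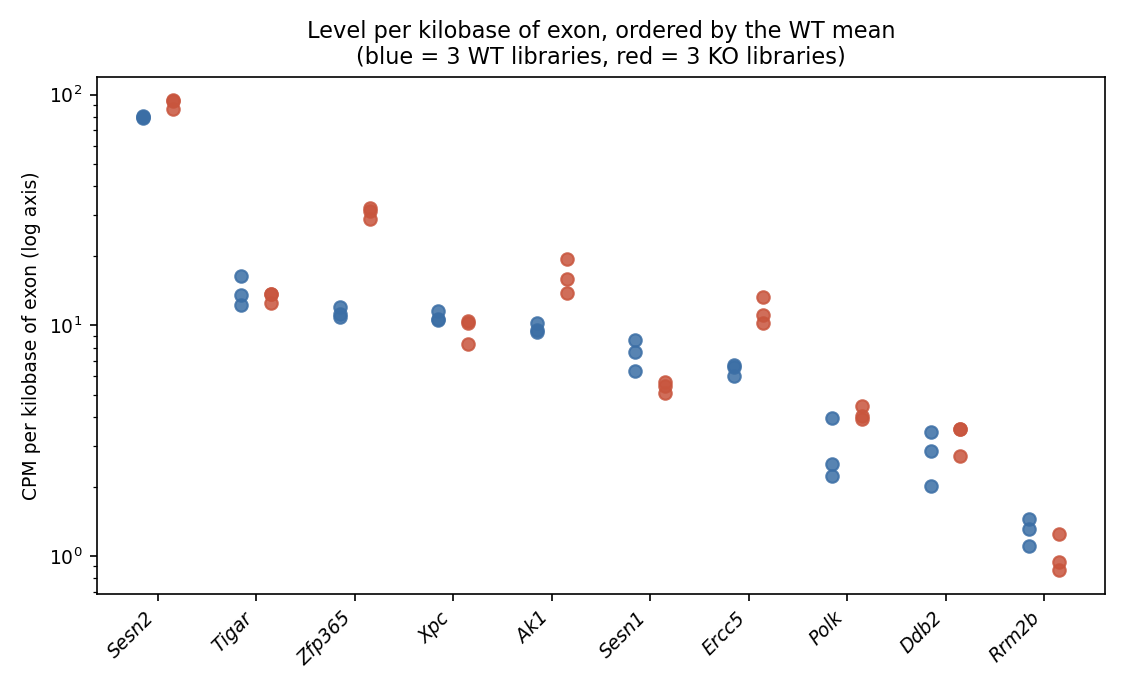
CPM per kilobase of exon (log axis) for the 10 genes in the 3 WT libraries (blue) and the 3 KO libraries (red), ordered by the WT mean. Sesn2 has the highest level in every library, and the mean of Zfp365 moves from 11.4 in WT to 30.8 in KO.

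Other p53 targets were set beside the 10 genes, in lists that hold none of them. These lists, too, were drawn up with earlier results of these data known. Of 17 tested targets with metabolic or redox roles, 5 rose and 0 fell, with a median of 0.07. Over all tested genes 8.13% rose and 9.13% fell. Trp53inp1, a stress protein that promotes p53 activity and autophagy, rose (0.73 ± 0.06, adjusted p = 8.58e-17), as did the proline pathway gene Aldh4a1 (0.59 ± 0.13, adjusted p = 0.000233) and the actin regulator gene Cyfip2 (0.31 ± 0.08, adjusted p = 0.0024). The phospholipid transfer gene Pltp (0.33 ± 0.10, adjusted p = 0.0138) and the carnitine palmitoyltransferase gene Cpt1c (0.38 ± 0.13, adjusted p = 0.0306) rose too. The call of Pltp was lost without WT 02, WT 03 or KO 05 (adjusted p up to 0.124) and that of Cpt1c without WT 02, WT 03, KO 04 or KO 05 (up to 0.34), and the count of higher genes was 3 without WT 03 or KO 05. The count of lower genes was 1 without KO 06.

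Of 24 tested genes of p53 feedback, cell cycle arrest and apoptosis, 17 rose and 2 fell, with a median of 0.48. The count of higher genes was 14 to 16 when 1 library was left out. This list was drawn up with the earlier result for p53 targets in these libraries known. Mdm2, whose product marks p53 for destruction, rose by 0.84 ± 0.06 (adjusted p = 2.1e-18), the same log2 size as Ercc5. The genes that fell were the stress sensor gene Gadd45a on chromosome 6 (-0.55 ± 0.07, adjusted p = 6.18e-10, and -0.30 relative to the median there) and the nuclear body gene Pml (-0.15 ± 0.05, adjusted p = 0.0411). The call of Pml was lost without WT 02, WT 03, KO 04 or KO 05 (adjusted p up to 0.15), and with upper-quartile factors (0.0711) , library size alone (0.0828) or no low-count filter (0.0523). Trp53, which encodes p53, was itself higher by 0.16 ± 0.06 (adjusted p = 0.0404), but the call was lost whichever library was left out (adjusted p 0.0506 to 0.198).

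**Figure D4:**
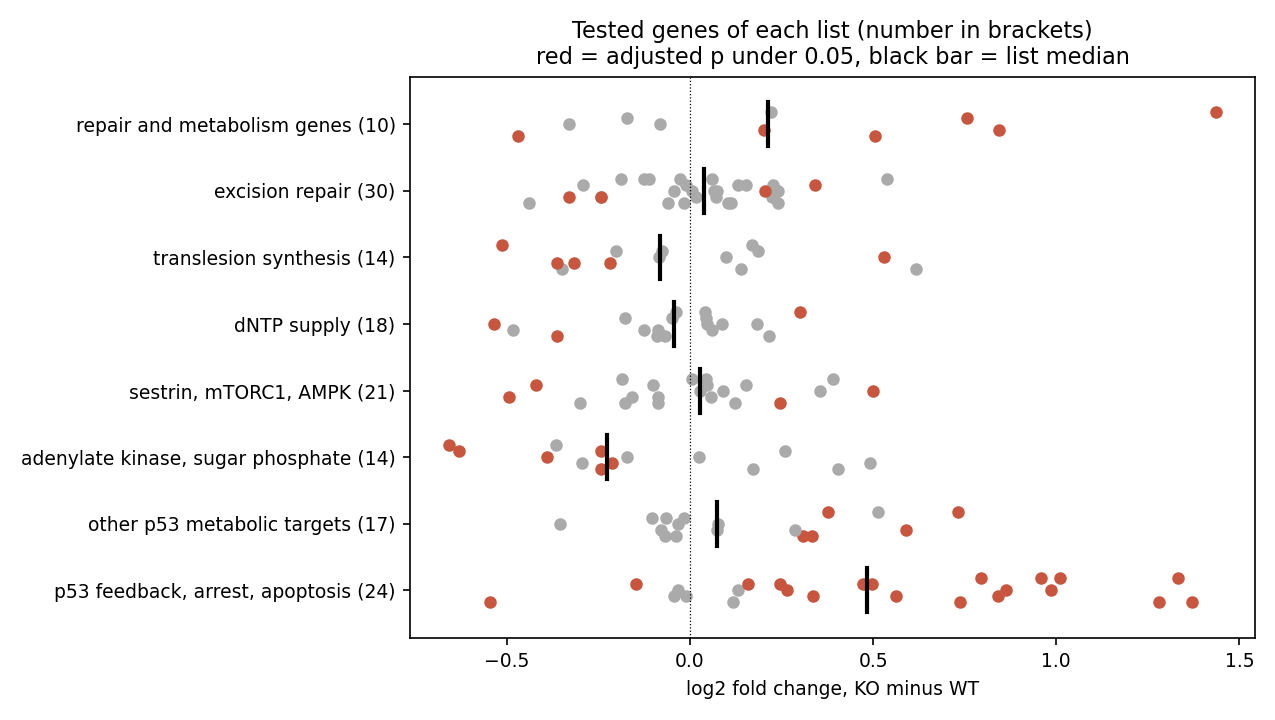
Log2 fold change (KO minus WT) of every tested gene in the 10-gene set and the partner lists, red where the adjusted p was under 0.05, with the list median as a black bar. The p53 feedback, arrest and apoptosis list has its median at 0.48 and the adenylate kinase and sugar phosphate list at -0.23, and the repair lists lie near 0.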

How the data were processed

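Per the labels' protocols, 500 ng of RNA was depleted of ribosomal RNA and made into libraries by a directional protocol, and 36 bases were read from both ends. The authors deposited 1 table with raw read counts per gene and library and the signed fold (a score, negative where KO is lower), p-value and FDR of their own test, per the file headers. The submitters' processing notes name mm10 and edgeR, with no version. Aligner, counting program and strand setting: not given in the sources used here. Columns carry genotype and library number. Another 18 columns of values per library were not used, so levels between genes were computed from the counts.

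Counts were filtered with filterByExpr, scaled by TMM and fitted with edgeR 4.0.16 (R 4.3.3; robust quasi-likelihood, group as the only term), with Benjamini-Hochberg adjustment over 11594 genes and a call at 0.05. The SE is the log2 fold change divided by the square root of F, and intervals are 95%. The procedure was tested on simulated data. Count ratios within a library used a pseudocount of 0.5. Alternatives were RLE, upper-quartile and no factors, 2 other filters, omission of the row Gm26917 (8.34% to 10.2% of counts), DESeq2 1.42.0 and each library left out. Gene identifiers and overlaps come from GENCODE M21. Table coordinates are printed 1-based. Named genes were the 10, direct partners, the 4 called genes with the smallest adjusted p per list, and every called gene where 5 or fewer were called in a direction. Some named genes are counted in their lists but not reported here. The members and lists were chosen with earlier results of these data known. No pair of libraries of 1 group agreed within sampling noise (chi-square per degree of freedom 1.75 to 2.73).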

Additional observations from a re-analysis of the deposited data

How the results depend on the processing

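No paired analysis was possible because the count columns carry library numbers but not the replicate numbers of the labels. Zfp365, Ercc5, Ak1 and Sesn2 were called in all 13 alternative fits, and Rrm2b, Xpc, Ddb2 and Tigar in none. Sesn1 was called in 11 and Polk in 9 of the 13. Of the 10 genes, 4 to 5 rose and 0 to 1 fell when 1 library was left out, and 0 fell with DESeq2. Over all genes, 719 to 823 rose and 820 to 923 fell without 1 library. DESeq2 called 498 higher and 646 lower, against 943 and 1059; the cause was not tested.

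In the partner lists, DESeq2 called 1 higher excision repair gene, 1 lower translesion gene, 1 higher sestrin partner, 3 lower adenylate kinase and sugar phosphate genes, 3 higher metabolic p53 targets and 1 lower p53 feedback or apoptosis gene. With no low-count filter 1 excision repair gene and 1 sestrin partner rose and 1 feedback or apoptosis gene fell. When 1 CPM was required in 3 libraries, 1 sestrin partner rose, and with upper-quartile factors or library size alone 1 feedback or apoptosis gene fell. Without 1 library, 1 to 3 excision repair genes rose, 1 to 2 translesion genes rose and 1 to 3 fell, 1 to 2 sestrin partners rose, 3 to 6 metabolic targets rose and 0 to 1 fell, and 1 to 2 feedback or apoptosis genes fell. In the same fits 14 to 16 feedback or apoptosis genes rose, and 4 to 6 adenylate kinase and sugar phosphate genes fell. The cause of these shifts was not tested. Ddb2 and Rrm2b had the fewest counts and the largest SE of the 10 genes. The part of counting error in that was not tested.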
